A study of Mus musculus with 6 samples.

Results

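The genes described here are 41 genes of DNA replication and of the G1/S transition, out of 27198 genes in the deposited table. They were chosen by symbol, from a list of replication factors and of regulators of entry into S phase, and all 41 were found in the table and passed the filter on low counts. To examine the influence of long-term ferulic acid (l-FA) supplementation, RNA was sequenced from hematopoietic stem cells (HSCs) of wild type, non-irradiated mice. All were males of the C57BL/6 strain, aged 8 to 10 weeks. Those of the l-FA group received ferulic acid, a phenolic acid of the herb Angelica sinensis, by intraperitoneal injection at 50 mg/kg daily for 30 days, whereas Ctrl mice received solvent. HSCs were sorted from bone marrow as Lineage-, Sca-1+, c-Kit+, Flk2- and CD34- cells. There were 3 Ctrl and 3 l-FA libraries, and the sources used here do not state how many mice each library came from.

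DNA is copied in steps that are carried out by separate sets of proteins. In G1 the origin recognition complex, Cdc6 and Cdt1 load the MCM helicase at origins, and in S phase Cdc45, the GINS complex and Mcm10 switch the helicase on. The sliding clamp Pcna, its loader, the polymerases, the nucleotide-making enzymes and the chromatin assembly factors then copy and repackage the genome. Many of these genes are induced by E2F transcription factors once cyclin-dependent kinases, among them Cdk2 with cyclin E, inactivate the retinoblastoma protein. Most HSCs of the adult marrow are known to be quiescent.

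Promoter stretches of 8 members whose levels are described below were taken from the RefSeq promoter table (build GRCm38.p6), where a window runs from 250 bases before to 50 bases after an annotated start site. They are shown because E2F factors read the words searched for, which were TTTCCCGC, TTTCGCGC, TTTGCCGC and TTTGGCGC on either strand. All stretches lie before the start site and are written 5′ to 3′ on the strand of the gene, with matches in capitals. In Mcm5 and Mcm6 the long run of capitals is a pair of matches on opposite strands that overlap. The stretches are chr8:75109334-75109393 (+) for Mcm5, chr1:128359736-128359830 (-) for Mcm6, chr4:108579389-108579448 (+) for Orc1, chrX:93632261-93632320 (-) for Pola1, chr9:109875484-109875543 (+) for Cdc25a and chr10:128705157-128705216 (-) for Cdk2.
Mcm5: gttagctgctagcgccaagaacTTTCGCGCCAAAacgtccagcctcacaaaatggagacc
Mcm6: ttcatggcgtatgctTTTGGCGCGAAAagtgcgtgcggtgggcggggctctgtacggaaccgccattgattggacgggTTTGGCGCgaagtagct
Orc1: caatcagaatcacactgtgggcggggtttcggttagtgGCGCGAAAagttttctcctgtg
Pola1: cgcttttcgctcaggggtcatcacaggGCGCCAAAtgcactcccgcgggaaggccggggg
Cdc25a: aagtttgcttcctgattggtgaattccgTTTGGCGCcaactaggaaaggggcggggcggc
Cdk2: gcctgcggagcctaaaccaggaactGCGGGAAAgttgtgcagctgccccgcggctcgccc

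The ribonucleotide reductase genes Rrm1 and Rrm2 held none of the E2F words in their windows, and their stretches are shown with the CCAAT box, a motif read by NF-Y, in capitals. The coordinates are chr7:102441590-102441664 (+) for Rrm1 and chr12:24708179-24708238 (+) for Rrm2.
Rrm1: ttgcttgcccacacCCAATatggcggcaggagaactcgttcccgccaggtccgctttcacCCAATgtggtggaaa
Rrm2: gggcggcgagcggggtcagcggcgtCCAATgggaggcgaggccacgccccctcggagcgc

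Total counts were 19287735 to 20380610 in Ctrl and 19505689 to 20376031 in l-FA libraries. Transcripts of Cd34 and Flt3, both among the markers used to exclude cells, were abundant in all 6 libraries, whereas Cd3e of the lineage cocktail had 0 to 10 counts. The other markers of the cocktail, among them the myeloid Mac-1 and Gr-1, were not read here. Cd34, whose protein the sorted cells were gated to lack, had 25402 to 32430 counts and ranked between 16 and 32 among all genes by count and between 211 and 319 by FPKM. Flt3, the gene of the excluded marker Flk2, had 14232 to 15060 counts in Ctrl and 23834 to 24368 in l-FA libraries. Slamf1, a marker of long-term HSCs, had 32 to 51 counts in Ctrl and 152 to 179 in l-FA. Mpo, an enzyme of neutrophil granules, ranked 1 or 2 by count and 1 to 14 by FPKM. RNA and surface protein need not match, and the libraries are called HSC libraries here as labelled. Libraries differed much less within a group than between groups. The median chi-square within a group over all genes tested was 0.888 to 1.07, where counting error alone gives 0.455, against 8.19 to 8.83 between groups. Over the 41 members these values were 0.676 to 1.65 within a group and 13.1 to 20.9 between groups. Over 97 immunoglobulin V segment genes the same-group values were 0.371 to 0.617, against 13.0 to 16.0 between groups. Libraries were scaled by total counts for these values. Where levels differ, the chi-square grows with the counts of a gene, so the sets of genes cannot be compared with each other. All p-values below measure the spread between these libraries, which may be technical and need not include the spread between mice.

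After TMM normalization, replication genes were more often lower than higher in l-FA HSCs, by small amounts. Of the 41 members, 18 (43.9%) were lower in l-FA than in Ctrl libraries and 5 (12.2%) were higher at an adjusted p under 0.05, and 18 did not pass. The background was 25% lower and 25.5% higher over all 16520 genes tested. With scaling by total counts alone 13 members were lower and 12 higher, where 19.4% of all genes tested were lower and 31.2% higher. E2f1, a transcription factor of the E2F family, had the largest fall with a log2 fold change of -0.82 (SE 0.13), and Cdk2, the kinase that cyclin E activates, the largest rise with 0.28 (SE 0.049). Adjusted p-values are from edgeR's quasi-likelihood test with Benjamini-Hochberg adjustment over all genes tested, and fold changes are l-FA against Ctrl after TMM normalization. In bulk RNA a smaller share of replicating cells and less RNA per cell cannot be told apart.

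No member passed an adjusted p under 0.05 together with a fold change above 2, in either direction, by edgeR or by DESeq2, although 26 members had an unadjusted p under 0.05. The share of all genes at an unadjusted p under 0.05 was not counted, and 25% were lower and 25.5% higher even at an adjusted p under 0.05. Over all genes tested 5.1% were lower and 6.68% higher by the joint thresholds. The members' median log2 fold change was -0.08, against 0.0035 over all genes tested. For 19 members (46.3%) each of the 3 l-FA libraries was lower than each of the 3 Ctrl libraries, which held for 29.9% of all genes tested, and for 7 members (17.1%) each was higher, against 30.4%. The groups overlapped for the other 15. The members' summed level was 10790 ± 172 CPM (counts scaled to the normalised library size, mean ± SD, n = 3) in Ctrl and 10110 ± 129 (n = 3) in l-FA, a ratio of 0.937.

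**Figure D1:**
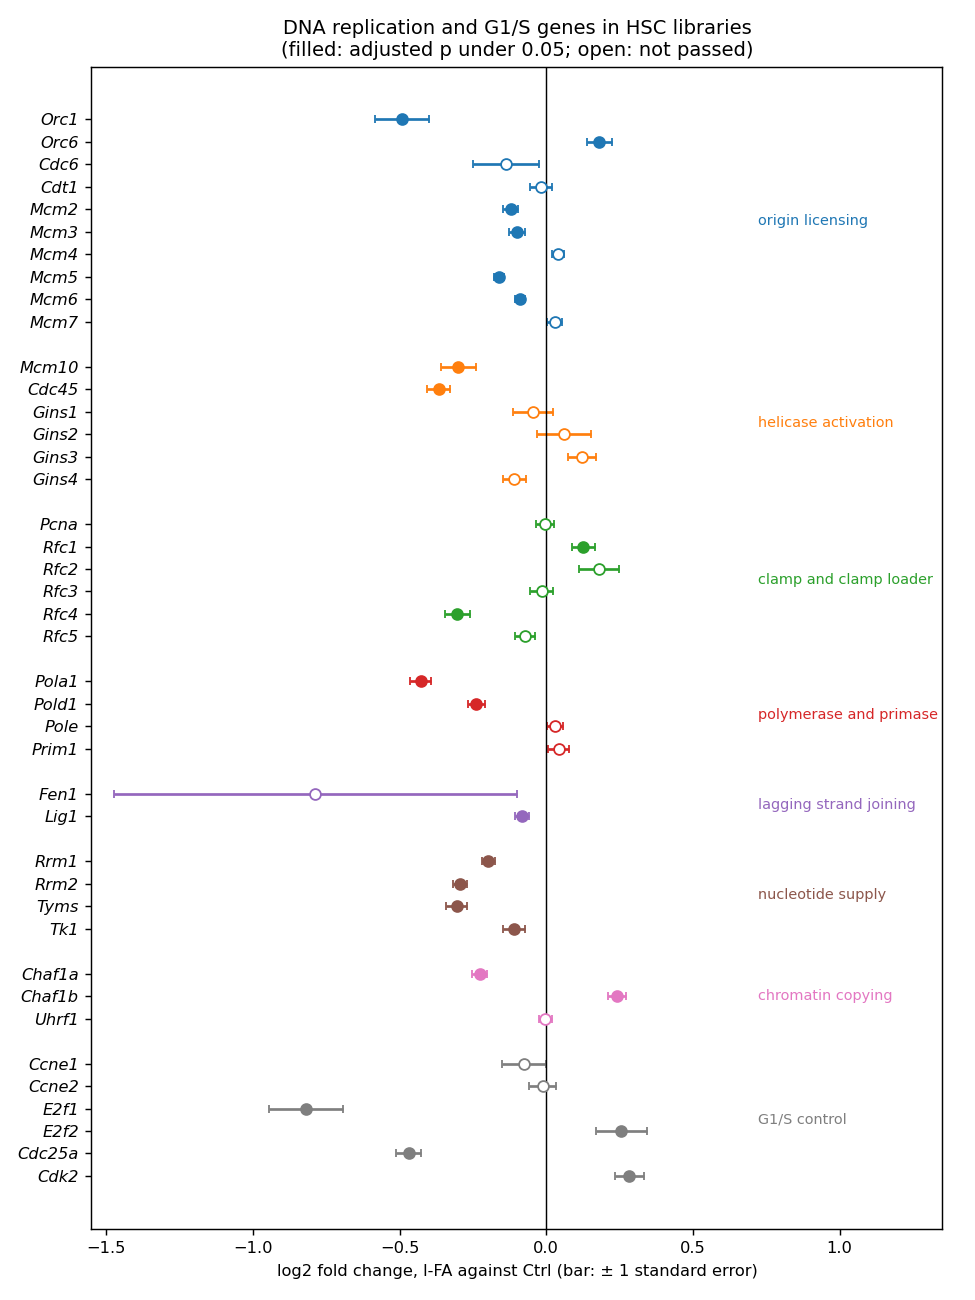
Log2 fold change of l-FA against Ctrl for the 41 members, grouped by role, with bars of 1 standard error (3 libraries a group). Filled points passed an adjusted p under 0.05: 18 lie left of 0 and 5 right of it, and the 4 nucleotide supply genes all lie left of 0.

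The direction of the small changes depended on the scaling. TMM factors were 0.9685 to 0.9787 in Ctrl and 1.025 to 1.032 in l-FA libraries, so scaling by total counts alone, an alternative added after the data were seen, raised the median log2 fold change over all genes tested by 0.079. With that scaling 19.4% of all genes tested were lower and 31.2% higher. The 18 members called under TMM and under total counts kept their direction. Mcm2, Mcm3, Mcm6, Lig1 and Tk1 were no longer called lower, and Mcm4, Mcm7, Gins3, Rfc2, Pole, Prim1 and Uhrf1 were called higher. Under upper-quartile scaling Lig1 and Tk1 lost their call, and Mcm4, Gins3 and Rfc2 were called higher.

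**Figure D2:**
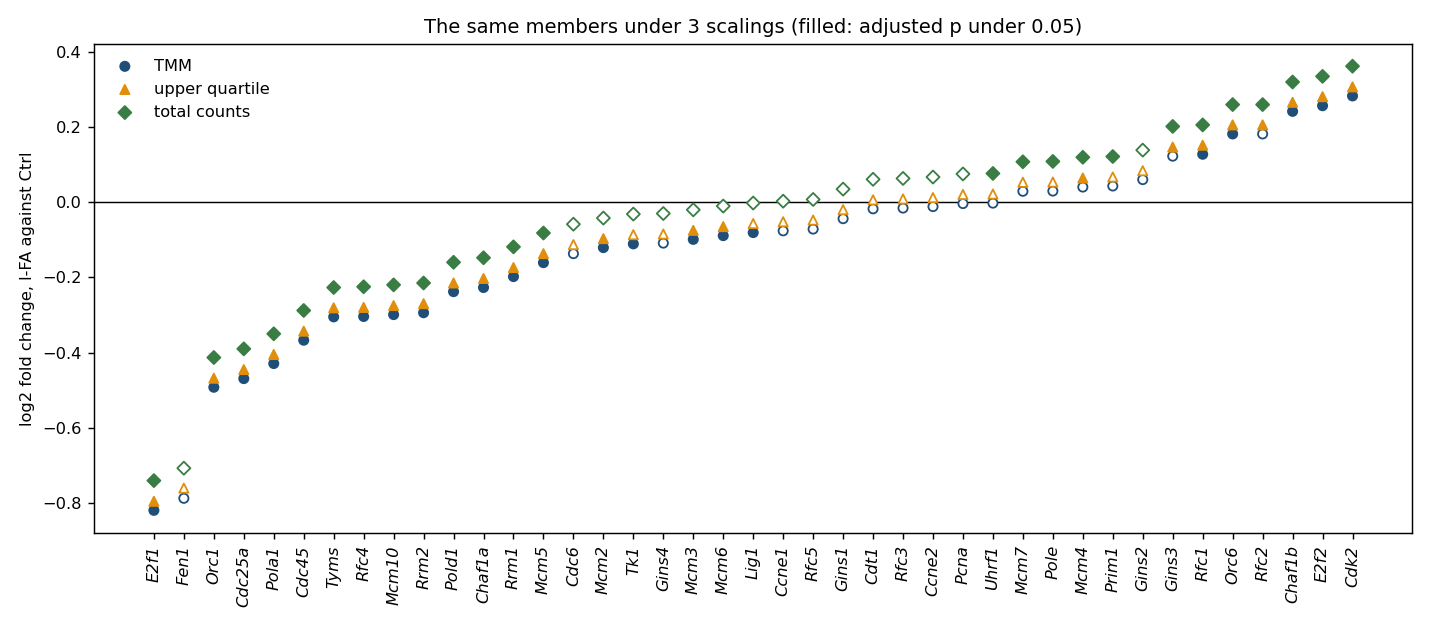
Log2 fold change of l-FA against Ctrl for each member under TMM, upper-quartile and total-count scaling, with filled points at an adjusted p under 0.05. Members run from E2f1 on the left to Cdk2 on the right, and total-count values (diamonds) lie above the TMM values (circles) for each of the 41 members.

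Origin licensing was the largest role with 10 members, of which 5 were lower, 1 was higher and 4 did not pass. Over all genes tested 25% were lower and 25.5% higher. Counts by role, here and below, were not tested against these shares. Their median log2 fold change was -0.09. Mcm5, a subunit of the MCM helicase (chr8:75836197-75855067, GRCm39), had 13649, 13543 and 14304 counts in Ctrl and 13373, 12969 and 12868 in l-FA libraries. After normalization Mcm5 was at 718 ± 7.30 CPM in Ctrl and 643 ± 5.11 CPM in l-FA (SD, n = 3), with all l-FA libraries below all Ctrl libraries. This is a log2 fold change of -0.16 (SE 0.017, adjusted p = 0.000477), the smallest adjusted p of the role.

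Mcm6, another helicase subunit and the member with the highest level per gene length, had 29249, 28526 and 30094 counts in Ctrl and 29476, 28999 and 28772 in l-FA libraries. The raw counts of Mcm6 overlapped between the groups, and the CPM did not, at 1511 to 1529 in Ctrl and 1404 to 1446 in l-FA. Mcm6 had a log2 fold change of -0.09 (SE 0.017, adjusted p = 0.00502) under TMM and -0.01 under total counts, where it did not pass. Mcm2 (-0.12, adjusted p = 0.00812) and Mcm3 (-0.10, adjusted p = 0.0191) likewise lost their call under total counts. Mcm3 also lost its call with a block for the replicate number (adjusted p = 0.0522). Mcm4 (0.04, adjusted p = 0.139) and Mcm7 (0.03, adjusted p = 0.396) did not pass under TMM, and Mcm4 passed as higher under upper-quartile scaling (adjusted p = 0.0243).

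Orc1 and Orc6, subunits of the origin recognition complex, changed in opposite directions. Orc1, chosen for description after its values were seen, had 643, 653 and 661 counts in Ctrl and 494, 430 and 546 in l-FA libraries. No l-FA library of Orc1 reached a Ctrl library, and its log2 fold change was -0.49 (SE 0.093, adjusted p = 0.00485). Orc6 had 1076, 1114 and 1123 counts in Ctrl and 1346, 1344 and 1278 in l-FA, again without overlap, with a log2 fold change of 0.18 (SE 0.043, adjusted p = 0.0124). The loading factors did not pass: Cdc6, which recruits the helicase to origins, had -0.14 (SE 0.11, adjusted p = 0.349), and Cdt1, which brings the helicase with it, -0.02 (SE 0.037, adjusted p = 0.718).

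Helicase activation had 6 members, of which 2 were lower and 4 did not pass, where 25% of all genes tested were lower. Cdc45, which joins the MCM ring to form the active helicase, had 1533, 1456 and 1619 counts in Ctrl and 1256, 1267 and 1249 in l-FA libraries. Every l-FA library of Cdc45 lay below every Ctrl library. The level fell from 79.7 ± 1.62 to 61.8 ± 1.79 CPM (SD, n = 3), a log2 fold change of -0.37 (SE 0.038, adjusted p = 0.000407). Mcm10, needed to start unwinding, fell by 0.30 on the log2 scale (SE 0.059, adjusted p = 0.0057).

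The 4 genes of the GINS complex, the partner of Cdc45 in the active helicase, did not pass under TMM, with log2 fold changes from -0.11 (Gins4) to 0.12 (Gins3). Gins4, the GINS gene with the highest level per gene length, had 1553, 1485 and 1614 counts in Ctrl and 1640, 1473 and 1446 in l-FA libraries. Its counts overlapped, whereas its CPM were 79.6 to 81.0 in Ctrl and 72.4 to 78.1 in l-FA (adjusted p = 0.0603). Without l-FA replicate 1 Gins4 passed as lower (adjusted p = 0.0355), and Gins3 passed as higher without l-FA replicate 3 (adjusted p = 0.0396), under upper-quartile scaling (adjusted p = 0.0411) and under total counts (adjusted p = 0.0125). Whether Cdc45 and the GINS genes differed in their response was not tested.

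The clamp and its loader gave 1 rise, 1 fall and 4 genes that did not pass, with a median log2 fold change of -0.0099. Of all genes tested 25.5% were higher and 25% lower. Pcna, the sliding clamp that holds the polymerases on DNA and a common marker of proliferation, had 3428, 3214 and 3389 counts in Ctrl and 3656, 3398 and 3516 in l-FA libraries. At 174 ± 4.44 CPM in Ctrl and 173 ± 3.40 CPM in l-FA (SD, n = 3), the groups of Pcna overlapped (log2 fold change -0.0040, SE 0.031, adjusted p = 0.927). Pcna is outside the rule for genes given by library and was added for its use as a marker.

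Rfc1, the large subunit of the clamp loader, rose from 3863, 3734 and 3933 counts to 4336, 4438 and 4517 counts. Its groups did not overlap, and the log2 fold change was 0.13 (SE 0.038, adjusted p = 0.0302). The call of Rfc1 was lost without any library other than l-FA replicate 1 (adjusted p = 0.0621 to 0.0821) and without a low-count filter (adjusted p = 0.0542). It was also lost with a block for the replicate number (adjusted p = 0.065). Rfc4, a small subunit, fell by 0.30 on the log2 scale (SE 0.043, adjusted p = 0.00136). Rfc2, the loader subunit with the highest level per gene length, had 8522, 8991 and 8844 counts in Ctrl and 10527, 9640 and 11398 in l-FA, but its normalised levels overlapped, since the lowest l-FA library had 481 and the highest Ctrl library 482 CPM (adjusted p = 0.0661). Rfc2 passed as higher by DESeq2 (adjusted p = 0.00686), under upper-quartile (adjusted p = 0.0448) and total-count scaling (adjusted p = 0.0166), and without l-FA replicate 2 (adjusted p = 0.0291). Rfc3 and Rfc5 did not pass, with log2 fold changes of -0.02 and -0.07, although Rfc5 passed as lower without Ctrl replicate 1 (adjusted p = 0.0423).

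Of the 4 polymerase and primase genes, 2 were lower and 2 did not pass, where 25% of all genes tested were lower. Their summed level went from 1052 ± 7.56 to 923 ± 17.7 CPM (SD, n = 3). Pola1, the catalytic subunit of the polymerase that extends primers, had 3503, 3418 and 3902 counts in Ctrl and 2864, 2844 and 2778 in l-FA libraries. Ctrl and l-FA libraries of Pola1 did not overlap, with a log2 fold change of -0.43 (SE 0.037, adjusted p = 0.000195). Pold1, the catalytic subunit of the lagging strand polymerase, had 11040, 10912 and 11221 counts in Ctrl and 9872, 9927 and 9901 in l-FA. It fell by 0.24 on the log2 scale (SE 0.028, adjusted p = 0.00068), again without overlap. Pole, which makes the leading strand (0.03, adjusted p = 0.432), and Prim1, the primase that starts each primer (0.04, adjusted p = 0.363), did not pass under TMM.

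On the lagging strand, Lig1, the ligase that seals Okazaki fragments, had 8515, 7940 and 8535 counts in Ctrl and 8483, 8306 and 8161 in l-FA libraries. Its CPM did not overlap (426 to 444 in Ctrl, 404 to 414 in l-FA), and the log2 change of -0.08 (SE 0.024, adjusted p = 0.0289) passed under TMM but not under upper-quartile or total-count scaling, nor without Ctrl replicate 1 or any l-FA library (adjusted p = 0.0669 to 0.142). The call of Lig1 was also lost with a block for the replicate number. Fen1, the nuclease that trims the fragments, was set by a single library, with 6723, 1409 and 1007 counts in Ctrl and 1982, 1900 and 1737 in l-FA. Fen1 had a log2 fold change of -0.79 (SE 0.69, adjusted p = 0.384) with all libraries and 0.54 (SE 0.17, adjusted p = 0.0482) without Ctrl replicate 1. It overlaps Tmem258, which had 860 counts in Ctrl replicate 1 against 797 and 989 in the other Ctrl libraries, and Gm10143, which had 500 counts there against 580 and 779. Fen1 was the sole member with a library at least 2-fold away from both others of its group, and it was chosen for description for that reason.

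**Figure D3:**
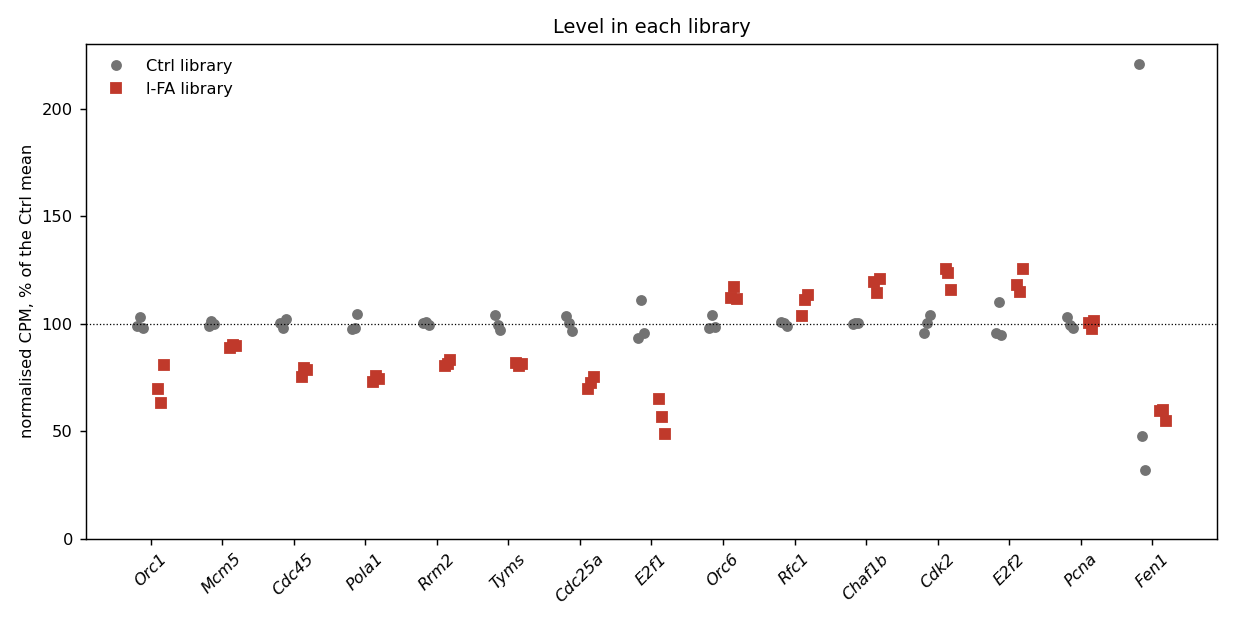
Normalised CPM of 15 members in each of the 3 Ctrl (circles) and 3 l-FA (squares) libraries, as a percentage of the Ctrl mean (dotted line at 100). The 8 members on the left have all l-FA libraries below all Ctrl libraries, the next 5 have them above, Pcna overlaps, and Fen1 has 1 Ctrl library far above the others.

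Nucleotide supply was the role in which all members fell under TMM: 4 of 4 were lower in l-FA, where 25% of all genes tested were lower. Their median log2 fold change was -0.25, with all l-FA libraries below all Ctrl libraries (29.9% of all genes tested). The summed level was 1288 ± 12.9 CPM in Ctrl against 1102 ± 16.4 in l-FA (SD, n = 3). Rrm2, the small subunit of ribonucleotide reductase that limits the making of deoxynucleotides in S phase (chr12:24758240-24764145, GRCm39), had 6760, 6615 and 6959 counts in Ctrl and 5924, 5747 and 5847 in l-FA libraries. Its log2 fold change of -0.29 (SE 0.023) had the smallest adjusted p of all 41 members (0.000128). Its partner subunit Rrm1 fell by 0.20 (SE 0.022, adjusted p = 0.000544) and Tyms, which makes thymidylate, by 0.31 (SE 0.036, adjusted p = 0.000637). Tk1, the thymidine kinase of S phase, fell by 0.11 (SE 0.036, adjusted p = 0.0426) with the TMM fit. Tk1 lost its call under total counts, with a block for the replicate number, under upper-quartile scaling (adjusted p = 0.0986), by DESeq2 (adjusted p = 0.0515), with either other low-count filter (adjusted p = 0.0513 and 0.057) and without any library other than Ctrl replicate 1 (adjusted p = 0.0826 to 0.157), whereas Rrm1, Rrm2 and Tyms kept theirs in each of these.

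The subunits of chromatin assembly factor 1, which places histones behind the fork, changed in opposite directions. Chaf1b had 3024, 2959 and 3157 counts in Ctrl and 3962, 3627 and 3821 in l-FA libraries. It rose from 158 ± 0.547 to 187 ± 5.45 CPM (SD, n = 3) without overlap, a log2 fold change of 0.24 (SE 0.030, adjusted p = 0.000782). Chaf1a fell by 0.23 on the log2 scale (SE 0.026, adjusted p = 0.000585). Uhrf1, which brings the maintenance DNA methyltransferase to copied DNA, had 6895, 6633 and 6879 counts in Ctrl and 7350, 7132 and 7040 in l-FA. Its CPM overlapped (log2 fold change -0.0027, adjusted p = 0.933) under TMM, and it was called higher under total counts.

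Among the 6 genes of G1/S control, 2 were lower, 2 higher and 2 did not pass, where 25% of all genes tested were lower and 25.5% higher. E2f1, described because its fall was the largest, had 320, 369 and 340 counts in Ctrl and 243, 202 and 173 in l-FA libraries. It went from 17.8 ± 1.69 to 10.1 ± 1.46 CPM (SD, n = 3) without overlap, a log2 fold change of -0.82 (SE 0.13, adjusted p = 0.00205). E2f2, an activator of the same family, had 244, 274 and 251 counts in Ctrl and 330, 307 and 334 in l-FA. Its groups did not overlap, and its log2 fold change was 0.26 (SE 0.087, adjusted p = 0.0469), a call that was lost without any library other than Ctrl replicate 2 (adjusted p = 0.0611 to 0.137), by DESeq2 (adjusted p = 0.0601) and without a low-count filter (adjusted p = 0.0732). The call of E2f2 was also lost with a block for the replicate number. E2f1 and E2f2 had the lowest mean counts of the 41 members.

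Cdc25a, the phosphatase that removes inhibitory phosphates from Cdk2, had 2036, 1921 and 1974 counts in Ctrl and 1502, 1487 and 1538 in l-FA libraries. It fell from 103 ± 3.52 to 74.2 ± 2.74 CPM (SD, n = 3), a log2 fold change of -0.47 (SE 0.043, adjusted p = 0.000259), with no overlap. Cdk2 had 1341, 1368 and 1516 counts in Ctrl and 1928, 1812 and 1689 in l-FA. Cdk2 rose by 0.28 on the log2 scale (SE 0.049, adjusted p = 0.00336), again without overlap. The genes of its partner cyclins did not pass, with -0.08 (SE 0.076) for Ccne1 and -0.01 (SE 0.047) for Ccne2.

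Of the 23 members called, 16 kept their call and direction under each alternative other than the test against a 1.2-fold change, namely 13 lower and 3 higher. The 3 higher were Orc6, Chaf1b and Cdk2. The 7 that lost a call under at least 1 alternative were Mcm2, Mcm3, Mcm6, Rfc1, Lig1, Tk1 and E2f2. In 22 of the 41 members the listed interval overlaps that of another gene, and the counting is not stated to use strand. As examples among the genes given by library, Orc6 overlaps Vps35 (6872 to 6976 counts in Ctrl, 6689 to 6813 in l-FA) and Cdc45 overlaps Ufd1 (1364 to 1641 and 1680 to 1860 counts). Rfc2 overlaps Lat2 (1250 to 1391 and 1879 to 2016 counts), Lig1 overlaps Zswim9 (92 to 120 and 295 to 363 counts) and Cdk2 overlaps Pmel (32 to 45 and 43 to 55 counts). Reads of such pairs may not be fully told apart.

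Levels per gene length, as the authors' FPKM, differed more between the subunits of a complex than between the groups. FPKM were scaled by the authors to total counts, so group differences on this scale follow the total-count values. The 6 subunits of the MCM ring ranged from 79.2 FPKM (Mcm2) to 254 FPKM (Mcm6) in Ctrl, a ratio of 3.21, and from 76.9 to 252 FPKM in l-FA, a ratio of 3.28. The GINS genes ranged from 13.7 (Gins3) to 58.0 FPKM (Gins4) in Ctrl, a ratio of 4.24, and the same genes were lowest and highest in l-FA, with a ratio of 3.61. The clamp loader ranged from 10.1 (Rfc3) to 58.3 FPKM (Rfc2) in Ctrl, a ratio of 5.8, and the ratio was 6.65 in l-FA.

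By FPKM the members were well expressed, and 38 of 41 lay above the median of all genes tested in every library. In every library 12 were among the highest 1000 genes and 30 among the highest 5000. The lowest levels were those of the regulators, with 2.65 ± 0.221 FPKM for E2f2, 3.70 ± 0.336 for E2f1 and 4.33 ± 0.142 for Ccne1 in Ctrl (SD, n = 3).

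**Figure D4:**
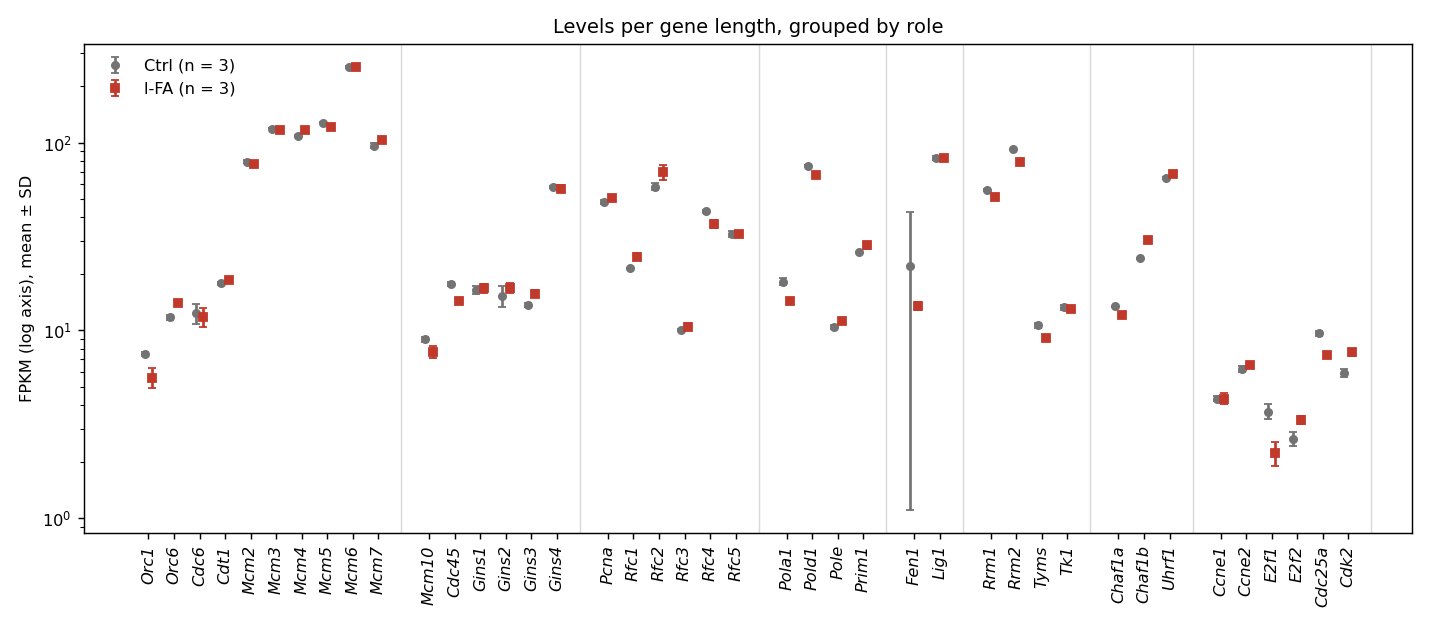
Mean FPKM with SD over 3 libraries on a log axis for each member, in Ctrl (circles) and l-FA (squares), grouped by role from origin licensing on the left to G1/S control on the right. Mcm6 is highest at 254 FPKM and E2f2 lowest at 2.65 FPKM in Ctrl, and the long bar of Fen1 comes from 1 Ctrl library.

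Other genes of replication were read from the same fit, in lists of 70 genes that hold no member. Of these, 28 were lower, 14 higher and 28 did not pass, with a median log2 fold change of -0.10, where 25% of all genes tested were lower and 25.5% higher. With the G1 brakes and mitotic genes added, 36 of 94 genes were lower and 20 higher under TMM. Under total counts 24 were lower and 26 higher, where 19.4% of all genes tested were lower and 31.2% higher. The scaling moved the counts over all genes tested in the same direction. Mcmbp, a protein that binds the MCM complex, was the sole gene past both thresholds. It went from 101 ± 2.90 to 36.9 ± 0.994 CPM (SD, n = 3), a log2 fold change of -1.45 (SE 0.041, adjusted p = 3.95e-06). In the other origin recognition and licensing genes 4 of 8 were lower and none higher, which included Orc3 (-0.30) and the Cdt1 inhibitor Gmnn (-0.30).

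Origin firing genes gave 4 falls and 1 rise among 8. Counts of this and the following lists were not tested against the shares of all genes tested, 25% lower and 25.5% higher. Donson, a factor of helicase assembly, fell by 0.93 on the log2 scale (adjusted p = 0.000805), and Cdc7, the kinase that triggers firing, fell by 0.70 (adjusted p = 3.26e-05). Ticrr, which carries the signal of the S phase kinase to the helicase, rose by 0.63 (adjusted p = 5.43e-05). Of 9 fork protection and checkpoint genes 4 were lower, such as the checkpoint kinase Chek1 (-0.56) and its adaptor Clspn (-0.49), and 2 were higher, among them Timeless (0.46).

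Other polymerase and primase subunits gave 4 falls and 1 rise among 8, where 25% of all genes tested were lower and 25.5% higher. The falls included Pold3 (-0.22) and Pold2 (-0.21), and the rise was Pola2 (0.15), a partner of Pola1 that is named after its value was seen. Of 8 other clamp loader and Okazaki processing genes only Atad5, which unloads the clamp, was called (0.43). Other nucleotide supply genes gave 3 falls and 2 rises among 8, with Dctd at -0.64, Shmt1 at -0.44 and Dck, a salvage kinase, at 0.26. Among 8 genes of replication-coupled chromatin 4 were lower and 1 was higher, with Asf1b at -0.23, Nasp at -0.19 and Slbp at 0.13.

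The list of 13 other E2F and S phase regulators was the most mixed, with 6 higher, 5 lower and a median log2 fold change of 0.12. Beside this and the lists below, 25.5% of all genes tested were higher and 25% lower. E2f5 (-0.88), E2f7 (0.56) and E2f4 (-0.53) had the largest changes. E2f7 is a repressor of the family, and E2f4 and E2f5 bind DNA in quiescent cells together with the retinoblastoma relatives. Of 8 G1 brakes and retinoblastoma family genes 3 were higher, among them Cdkn1c (0.62) and Rbl2 (0.54), and Rb1 was lower (-0.35). The 16 genes of G2/M and mitosis gave 7 falls and 3 rises, led by Ube2c (-0.42), Bub1 (-0.35) and Cenpf (0.35).

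E2F words were found in promoter windows of 16 of the 34 members that the RefSeq table holds (47.1%), against 2.6% of all 27025 genes in the table and 4.73% of the tested genes found there. A word was held by 8 of 18 members called lower, by 2 of 5 called higher, and by 6 of the 11 that did not pass and are in the table. Mcm5, Orc1, Pola1 and Cdc25a, printed above, were lower, and Cdk2, with a word 140 bases before the start site, was higher. CCAAT was found in 22 of 34 members (64.7%), against 41.1% of genes in the table. A match is a description of the letters in the window, and no binding was measured.

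**Figure D5:**
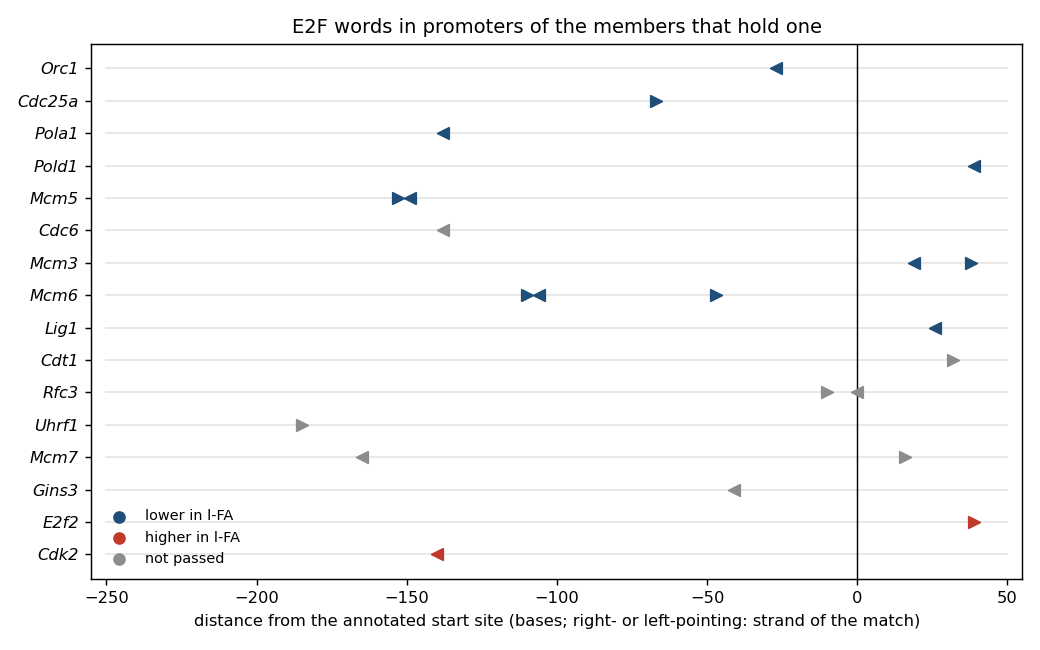
Position of each E2F word in the promoter windows of the 16 members that hold at least 1, in bases from the annotated start site, with triangles pointing along the strand of the match and colours for the call in l-FA. Words lie on either side of the start site, and each of the 3 colours (lower, higher, not passed) is present.

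Markers of blood cell types are given beside the results above. Over all genes tested 25% were lower and 25.5% higher. The neutrophil and monocyte list had 9 of 10 genes lower in l-FA and Lyz2 higher, and its summed level was 23060 to 24000 CPM in Ctrl and 6048 to 6350 in l-FA libraries. Mpo and Elane, granule proteins made in early granulocyte progenitors, had log2 fold changes of -1.91 and -2.82. The multipotent progenitor list had 2 of 3 genes higher and Cd48 lower, at 2272 to 2315 CPM in Ctrl and 2875 to 2985 in l-FA, and the HSC list had 7 of 11 higher and 1, Hlf, lower, at 1816 to 1885 and 2071 to 2091 CPM.

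Lists of the other lineages were at lower levels. Of 8 erythroid genes 3 were higher (89.1 to 95.2 CPM in Ctrl, 104.6 to 106 in l-FA), of 5 megakaryocyte genes 2 were higher (186 to 194 and 264 to 273 CPM), and of 3 B cell genes tested 1 was higher (54.9 to 55.6 and 63.2 to 66.0 CPM). Over all genes tested 25.5% were higher, and counts from such short lists were not tested against that share. In the erythroid list 5 log2 fold changes were positive and 3 negative. No T and NK cell gene passed the filter on low counts, and that list summed to at most 1.56 CPM in any library. The part of these shifts in the levels of the replication genes was not tested.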

How the data were processed

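RNA of sorted HSCs was amplified as cDNA and sequenced. The authors deposited raw counts per gene for each library, and FPKM values that they made from them per gene length and total counts. The submitters' processing notes name HISAT2, SAMtools 1.3.1, StringTie, edgeR and the build GRCm39, without roles or parameters, and the paper's methods name DESeq2. The gene annotation and the strand setting are not given in the sources used here. Samples were grouped by their labels.

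Counts of 27198 genes were tested for l-FA against Ctrl with edgeR 4.0.16 in R 4.3.3 by its quasi-likelihood test (TMM normalization, filterByExpr, glmQLFit, glmQLFTest). P-values were adjusted by the method of Benjamini and Hochberg across the 16520 genes that passed the filter. Standard errors were obtained as the absolute log2 fold change over the square root of the F statistic. CPM are counts scaled to the TMM library size, and FPKM were used only to compare levels between genes. The cDNA was amplified and carried no molecular identifiers, so counts are not independent molecules. The code was tested on simulated data. The alternatives were DESeq2 1.42.0, RLE, upper-quartile and total-count scaling, no filter, a minimum of 10 counts in each library, a block for the replicate number, a test against a 1.2-fold change (glmTreat), and each library left out in turn. Only the total-count fit of the genes was added after the data were seen.

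The members and the gene lists were chosen with earlier results of these data known. Values by library are given for the 5 members with the smallest adjusted p in each direction and for the member of each role with the highest mean FPKM, and any other is said to be so. Of the other lists, up to 3 genes with the largest called changes are named. Promoter windows came from RefSeq tables of GRCm38.p6, which lack 7 members (Ccne2, Gins1, Gins2, Gins4, Mcm4, Pole and Rfc2).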

Additional observations from a re-analysis of the deposited data

How the results depend on the processing

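The count of members called higher in l-FA, 5 with TMM, was 8 with upper-quartile scaling, 3 without a low-count filter, 3 with the replicate block, 12 with total-count scaling (chosen after seeing the data) and 3 to 4 with each library left out in turn. Over all genes of each fit, 27.2% were higher with upper-quartile scaling, 16.7% without a filter, 22.7% with the replicate block and 31.2% with total counts. With each library left out in turn, 22.6% to 23.4% of all genes were higher. The test against a 1.2-fold change (glmTreat of edgeR) called 0 members higher, with 0 at an unadjusted p under 0.05, and 5 members lower (Orc1, Cdc45, Pola1, E2f1 and Cdc25a), against 18 lower by the quasi-likelihood test. Over all genes tested glmTreat called 14.7% higher and 12.6% lower. The count of lower members was 16 to 18 with a library left out, 15 with the replicate block and 17 with DESeq2. Over all genes of these fits, 21.3% to 22.8%, 22.1% and 24.9% were lower, in the same order. Rfc1 lost its call without each library except l-FA replicate 1, Tk1 without each except Ctrl replicate 1, and E2f2 without each except Ctrl replicate 2. With the replicate block Mcm3, Rfc1, Lig1, Tk1 and E2f2 lost their calls. In the other lists 9 genes were higher and 13 lower by glmTreat, and 26 higher and 24 lower with total counts, against 20 and 36. The members' median log2 fold change of -0.0811 was -0.0571 with upper-quartile and -0.00257 with total-count scaling, and -0.0941 to -0.059 with a library left out. The ratio of summed levels, 0.937, was 0.953, 0.989 and 0.926 to 0.952 in the same order. The median over all genes tested moved as well, from 0.0035 with TMM to 0.0275 with upper-quartile and 0.0821 with total-count scaling. No called member changed sign under any alternative. Signs of members that had not passed turned positive with total counts for Cdt1 (0.0605), Gins1 (0.0344), Pcna (0.0747), Rfc3 (0.0628), Rfc5 (0.00694), Uhrf1 (0.076), Ccne1 (0.00239) and Ccne2 (0.0665). They turned with upper-quartile scaling for Cdt1 (0.00599), Pcna (0.0202), Rfc3 (0.00832), Uhrf1 (0.0213) and Ccne2 (0.0119), and with a minimum of 10 counts in each library for Pcna (0.00339) and Uhrf1 (0.00464). With each library left out in turn the ranges were -0.0335 to 0.0214 (Cdt1), -0.0121 to 0.156 (Gins2), -0.0247 to 0.0237 (Pcna), -0.0245 to 0.0235 (Rfc3), -1.22 to 0.543 (Fen1), -0.0252 to 0.0165 (Uhrf1) and -0.0409 to 0.0185 (Ccne2). Apart from Fen1, whose value rests on Ctrl replicate 1, the cause was not tested. Same-numbered libraries did not deviate together over all genes tested (correlations of 0.0187, -0.0132 and -0.05). This cannot exclude that the numbers pair the samples. Much of the same-group spread was of the size of counting error (median chi-square of 0.888 to 1.07, against 0.455).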
